A study of Mus musculus with 4 samples.

Results

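The insulin-like growth factor (IGF) system of the dentate gyrus (DG) is described here through 9 genes, chosen by name: the growth factors Igf1 and Igf2, the receptor Igf1r and the binding proteins Igfbp2, Igfbp3, Igfbp4, Igfbp5, Igfbp6 and Igfbp7. All probe sets annotated to only one of these symbols were taken, which gave 21 probe sets for 9 genes, out of 12393 genes on the array. The study used electroconvulsive stimulation (ECS), which models electroconvulsive therapy in rodents, and asked what it does to hippocampal granule cells (GCs). Its arrays measured RNA from the dissected DG. There were 4 arrays, 1 for each group, and each was hybridised with RNA pooled from 3 male C57Bl/6 mice (C57BL/6J or C57BL/6N by the study's methods) that were 8 weeks old at purchase. The first group received a sham session and was dissected 1 h later. The second received a single ECS and was dissected at 1 h. The third was dissected 48 h after the last of 10 ECS, and by the study's description a sham session preceded their dissection by 1 h. The fourth was dissected 1 h after the last of 11 ECS. ECS was a bilateral current of 25 mA for 1 s under isoflurane, which the sham mice received without the current, and repeated ECS took up to 3 weeks with 4 sessions in each. No group carried a genetic change. Because pooled mice and 1 array stood for each group, no spread within a group could be measured, and no test or p-value is given. All mice of a group also shared their array, so that an effect of the group and a peculiarity of its array cannot be told apart.

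IGF1 and IGF2 are secreted peptides related to insulin. Both signal mainly through the receptor tyrosine kinase encoded by Igf1r, which engages insulin receptor substrates, PI3 kinase and Akt. The binding proteins hold the growth factors outside cells, prolong their lifetime and limit or direct their access to the receptor. In the brain, IGF1 is known for promoting neurogenesis in the adult DG and is made by microglia and some neurons, whereas Igf2 RNA is found mostly in the meninges, choroid plexus and vessels. IGFBP6 differs from the other binding proteins in its preference for IGF2.

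The array facts that bear on the results are few. The median signal was 69.3 units on the sham array and between 56.3 and 62.4 on the other 3, and between 73.9% and 76.7% of probe sets exceeded 12 units, the 25th percentile of all signals, below which a signal was set to this floor. Spearman correlations between arrays, across probe sets, were between 0.975 and 0.981. The labels were checked against 5 genes of neuronal activation, among them Fos, with signals of 139.3 in sham, 1833.3 after a single ECS, 82.8 after 10 ECS at 48 h and 937.2 after 11 ECS. All 5 were at least 2-fold higher on both arrays made 1 h after an ECS than on their controls. The granule cell gene Prox1 read between 57.1 and 69.8 units on the 4 arrays. The free-text descriptions of 3 arrays name other treatments than their titles, and the titles were followed.

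The promoters of the genes that differed most are shown first. They are RefSeq windows of the mouse build GRCm38.p6, from 250 bases before to 50 after an annotated start, and 13 windows matched the 9 genes. Igfbp6 and Igfbp5 are shown because their RNA was past 2-fold in a comparison, and Igfbp2 (the second of its starts) because it is the next protein-coding gene to Igfbp5 on chromosome 1 and differed little. Igfbp6 lies at chr15:102143936-102144235 on the plus strand, Igfbp5 at chr1:72874816-72875115 on the minus strand and Igfbp2 at chr1:72825137-72825436 on the plus strand. Capitals mark a match to a searched motif.
Igfbp6: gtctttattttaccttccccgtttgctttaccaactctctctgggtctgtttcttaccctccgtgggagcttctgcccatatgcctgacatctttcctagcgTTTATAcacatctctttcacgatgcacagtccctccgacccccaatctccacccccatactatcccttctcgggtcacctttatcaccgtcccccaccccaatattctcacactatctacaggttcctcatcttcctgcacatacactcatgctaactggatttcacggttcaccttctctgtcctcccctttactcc
Igfbp5: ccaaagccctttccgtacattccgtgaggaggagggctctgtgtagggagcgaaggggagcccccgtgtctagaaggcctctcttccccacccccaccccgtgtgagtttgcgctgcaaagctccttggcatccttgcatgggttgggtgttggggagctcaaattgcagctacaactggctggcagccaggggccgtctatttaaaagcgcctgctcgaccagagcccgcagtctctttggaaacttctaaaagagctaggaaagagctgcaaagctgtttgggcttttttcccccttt
Igfbp2: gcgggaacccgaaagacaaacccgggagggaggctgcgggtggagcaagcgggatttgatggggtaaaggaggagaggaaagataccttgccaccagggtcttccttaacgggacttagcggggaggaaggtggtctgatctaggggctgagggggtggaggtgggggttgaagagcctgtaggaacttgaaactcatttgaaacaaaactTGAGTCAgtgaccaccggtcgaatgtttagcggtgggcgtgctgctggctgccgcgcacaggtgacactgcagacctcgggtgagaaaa

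The motifs were those read by factors that ECS induces, searched on both strands: TGANTCA for AP-1 (in 7.81% of 32851 promoter windows of all genes), TGACG for the core of the cAMP response element (20.8%), GCGTGGGCG for Egr factors (0.612%) and AAAGGTCA for Nr4a receptors (1.51%), with TATAAA (13.6%) beside them. No 2 matches overlapped in the windows of the 9 genes. In the Igfbp6 window the only match was TATAAA on the other strand, 148 bases before the start. The Igfbp5 window held none of the 5 motifs. Among the other windows, AP-1 matched once in Igf1, 37 bases before its start, and once in Igfbp2, 39 bases before. The TGACG core matched once in each of 2 of the 4 Igf2 windows, and TATAAA once in Igfbp4, 28 bases before its start. The Igfbp6 window was 49.7% G or C and that of Igf1r 76%, against a median of 52.7% over all windows. A match describes letters only and is not a binding site.

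Each gene was read by its brightest probe set, and all 9 had such a probe set above the floor on all 4 arrays. The design gave 4 comparisons. An acute ECS was read by 2 pairs of arrays that share none, single ECS over sham and 11 ECS over 10 ECS, and a course of earlier ECS by 2 other such pairs, 10 ECS over sham and 11 ECS over single ECS. By their titles the sham and single ECS groups had a single session, given to naive mice by the study's description. In both course readings repeated current therefore came with repeated isoflurane and handling. These cannot be told apart. For each gene the mean of both readings is given with its SD (n = 2 array pairs). By construction this SD is the same for the acute and the course readings of a gene, since both come from its difference of responses, and it is the only spread between arrays that the design allows.

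**Figure D1:**
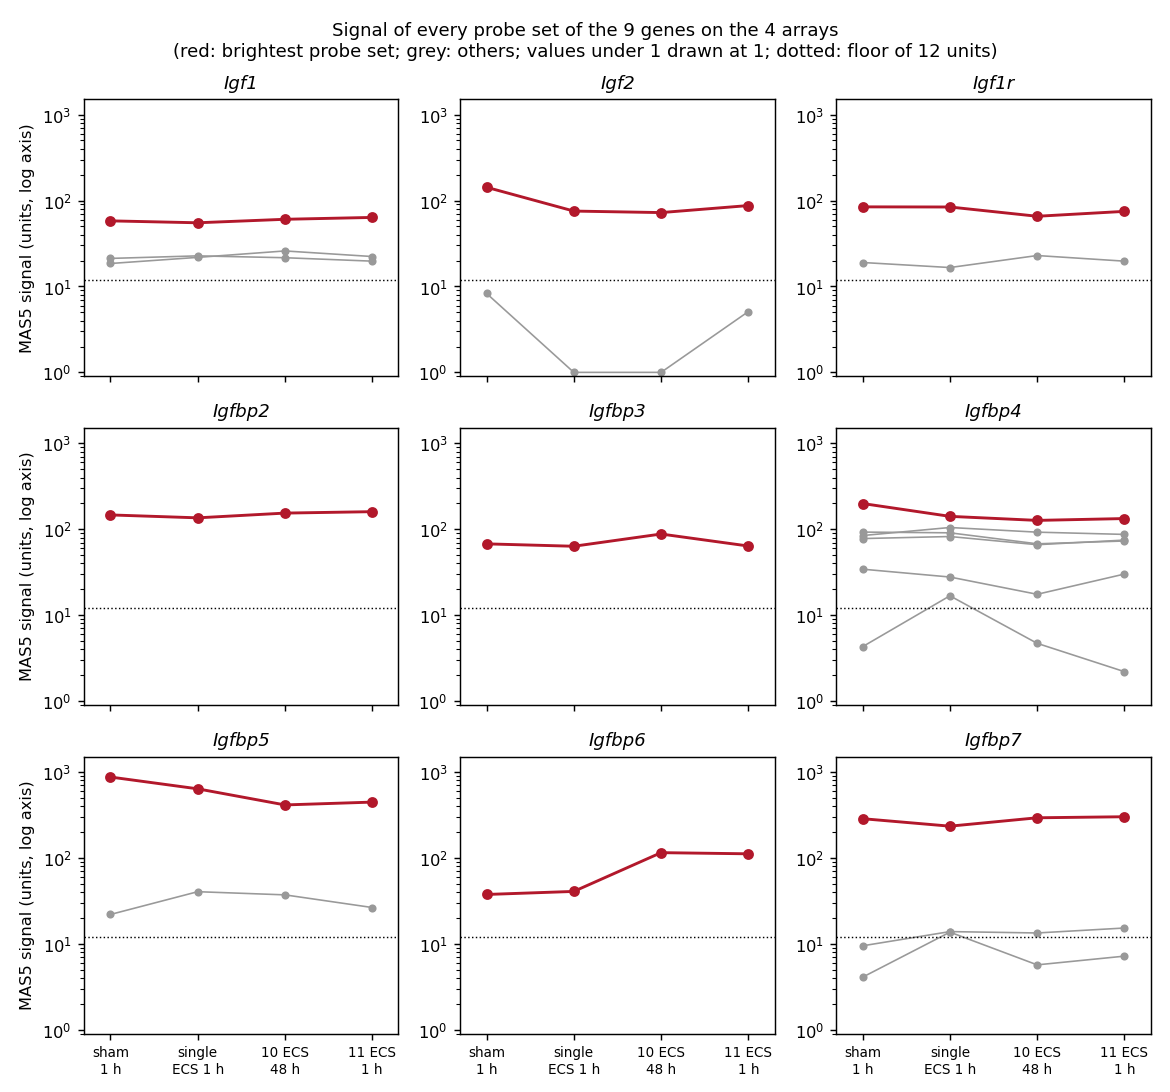
MAS5 signal (units, log axis) of all 21 probe sets of the 9 genes on the 4 arrays, each point 1 array, with the brightest probe set of a gene in red, its other probe sets in grey and the floor of 12 units dotted. Igfbp6 steps up from 37.6 and 40.8 units to 115.3 and 111.8, the brightest probe set of Igfbp5 goes down from 875 in sham to 414.3 and 446.9 units after repeated ECS, and Igf2 is brightest on the sham array.

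The clearest difference was that of Igfbp6 after repeated ECS. Its single probe set read 37.6 units in sham, 40.8 after a single ECS, 115.3 at 48 h after 10 ECS and 111.8 at 1 h after 11 ECS. Both arrays of mice with earlier ECS were thus about equally high and both arrays without it low. Igfbp6 was 3.07-fold higher for 10 ECS over sham and 2.74-fold higher for 11 ECS over single ECS, a mean log2 ratio of 1.54 ± 0.11 (SD, n = 2 array pairs). For comparison, the pooled SD of the 2 readings was 0.31 over 1363 genes with a mean signal between 50 and 100 units. Igfbp6 ranked 11 from the top of 9724 genes by its mean. The low arrays were at 37.6 and 40.8 units, under the limit of 50 that the study's methods used elsewhere. With a floor of 50 units the log2 ratios were 1.21 and 1.16, which are then lower bounds, and Igfbp6 stayed past 2-fold in both readings.

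Igfbp5, which encodes one of the most conserved binding proteins, differed in the other direction. Its brightest probe set read 875 units in sham, 637.9 after a single ECS, 414.3 after 10 ECS and 446.9 after 11 ECS. Both arrays with repeated ECS lay below both arrays without it. Igfbp5 was 2.11-fold lower for 10 ECS over sham and 1.43-fold lower for 11 ECS over single ECS, a mean log2 ratio of -0.80 ± 0.40 (SD, n = 2 array pairs), and its mean ranked 95 from the bottom of 9724 genes. Over genes with a mean signal of at least 500 units the pooled SD of both readings was 0.15. The suffix of this probe set (s_at) marks probes that can match transcripts of more than 1 gene. The other probe set of Igfbp5 read 22.0, 40.5, 37.2 and 26.5 units in the same order. It went the other way for 10 ECS over sham, with a log2 ratio of 0.76. For 11 ECS over single ECS it was lower like the brightest, with -0.61. With the median over both probe sets, the log2 ratio of 10 ECS over sham was -0.16 and Igfbp5 was no longer past 2-fold. That of 11 ECS over single ECS was -0.56.

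The scaling of the arrays also bears on Igfbp5. Over all genes the median log2 ratio of 10 ECS over sham was -0.14, and that of 11 ECS over single ECS was 0.00. With the arrays scaled to the same median, the log2 ratios of Igfbp5 were -0.93 and -0.52, under 2-fold in both readings. Those of Igfbp6 were 1.77 and 1.44, past 2-fold in both.

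Counted over the 9 genes, 1 (Igfbp6) was at least 2-fold higher for 10 ECS over sham, where 0.716% of 10202 genes were, and 1 (Igfbp5) at least 2-fold lower, where 1.22% were. For 11 ECS over single ECS, 1 (Igfbp6) was at least 2-fold higher, against 0.832% of 9971 genes, and 0 were 2-fold lower, against 0.782%. In both readings together, 1 was higher (0.237% of 9724 genes) and 0 were lower (0.144%). The 7 other genes lay under 2-fold. By the mean of both readings 5 of the 9 lay above 0 and 4 below.

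**Figure D2:**
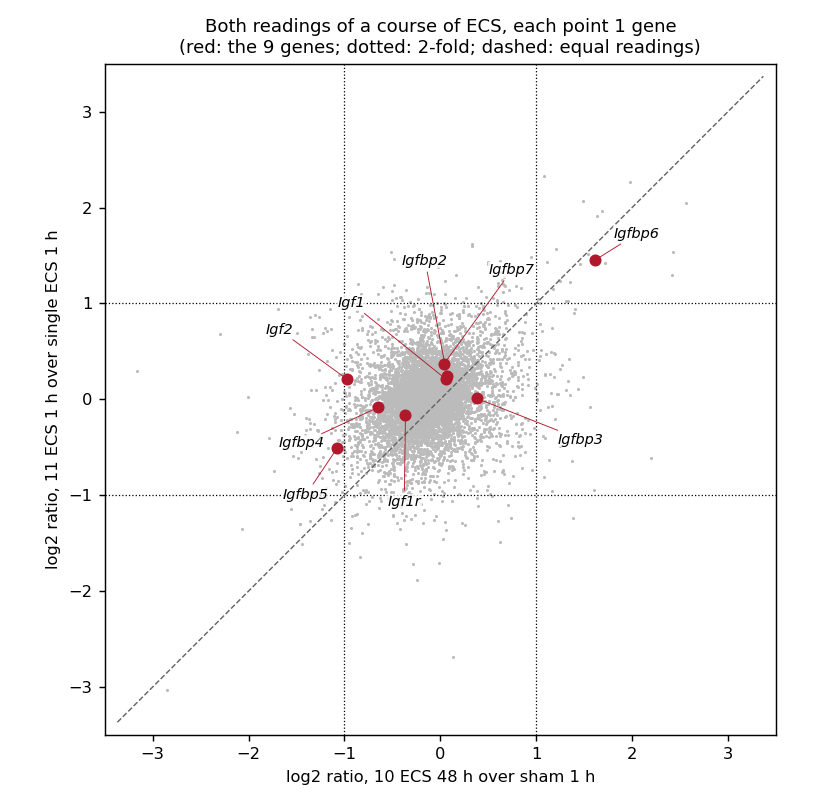
Log2 ratio of 11 ECS 1 h over single ECS 1 h against that of 10 ECS 48 h over sham 1 h, each point 1 of 9724 genes, with the 9 IGF genes in red, 2-fold limits dotted and equal readings dashed. Igfbp6 lies at 1.62 and 1.45 beyond both limits, Igfbp5 at -1.08 and -0.51, and Igf2 at -0.98 and 0.21, while of Igf1, Igfbp2, Igfbp3 and Igfbp7 none lies farther from 0 than Igfbp3 at 0.38.

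Igf2 was high on 1 array. Its brightest probe set read 142.7 units in sham, 75.4 after a single ECS, 72.4 after 10 ECS and 87.4 after 11 ECS. The 3 ECS arrays lay close to each other and the sham array stood apart. Igf2 was therefore 1.89-fold lower for a single ECS over sham and 1.97-fold lower for 10 ECS over sham, just under the 2-fold limit, and these ratios share the sham array. In the pairs without the sham array, the log2 ratios were 0.27 for 11 ECS over 10 ECS and 0.21 for 11 ECS over single ECS. The mean course reading was -0.38 ± 0.84 (SD, n = 2 array pairs), so that the sign of a difference was not fixed by both pairs. With the arrays scaled to the same median, the log2 ratios to sham were -0.62 and -0.83. The other probe set of Igf2 was below the floor on all 4 arrays.

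Igf1 showed little difference on any array. Its brightest probe set read 58.0, 55.1, 60.5 and 63.6 units from sham to 11 ECS, and its other 2 probe sets read between 18.5 and 25.9 units. The mean log2 ratio was 0.13 ± 0.10 for a course and -0.00 ± 0.10 for an acute ECS (SD, n = 2 array pairs). Igf1r read 84.4, 84.1, 65.6 and 74.8 units, a mean course ratio of -0.27 ± 0.14, and its dimmer probe set read 19.0, 16.6, 22.9 and 19.7. The 2 probe sets of the receptor thus differed in direction between 10 ECS and sham, with log2 ratios of -0.36 and 0.27.

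Among the other binding proteins, Igfbp4, whose product mostly inhibits IGF action and is cut by the protease PAPP-A, read 199.3 units in sham, 141.3 after a single ECS, 126.8 after 10 ECS and 133.2 after 11 ECS. Like Igf2, it was highest on the sham array. Its log2 ratios were -0.65 for 10 ECS over sham and -0.09 for 11 ECS over single ECS. Of its 5 other probe sets, 3 read between 66.1 and 104.8 units on all arrays, 1 read between 17.5 and 34.3, and 1 was above the floor only after a single ECS, at 16.8 units. The probe sets of Igfbp4 disagreed after the first ECS, where the median log2 ratio over them was 0.03 against -0.50 for the brightest.

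Igfbp2, a binding protein of astrocytes and choroid plexus, read 146.8, 135.8, 154.2 and 160.2 units, with a mean course ratio of 0.15 ± 0.12. Igfbp3, the main carrier of IGFs in blood, read 67.6, 63.4, 88.0 and 63.8 units. It was highest at 48 h after 10 ECS, with a log2 ratio of 0.38 to sham, and the array at 1 h after 11 ECS matched that after a single ECS, with a log2 ratio of 0.01. Igfbp7, a vascular protein that binds IGFs weakly, read 286.5, 234.5, 293.6 and 301.9 units, a mean course ratio of 0.20 ± 0.23. Its other 2 probe sets stayed at or below 15.3 units. These 3 genes differed between arrays by less than 1.5-fold in all 4 comparisons.

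The acute ECS was compared next, and none of the 9 genes was past 2-fold. After the first ECS, 0 of the 9 lay 2-fold or more above sham (1.2% of 10133 genes did) and 0 as far below it (2.89% did). After the 11th, 0 were higher (1.06% of 10046 genes) and 0 lower (1.21%), and in both readings 0 were higher (0.627% of 9730 genes) and 0 lower (0.36%). With shares this small, 0 of 9 is near the share over all genes. The counts therefore do not set the IGF genes apart from other genes. The log2 ratios of the 9 genes ranged from -0.92 for Igf2 to 0.12 for Igfbp6 after the first ECS, where the median of all genes was -0.24, and from -0.46 for Igfbp3 to 0.27 for Igf2 after the 11th, where it was -0.11. Arc, a synaptic gene of neuronal activity, had log2 ratios of 4.91 and 4.33 in the same comparisons.

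**Figure D3:**
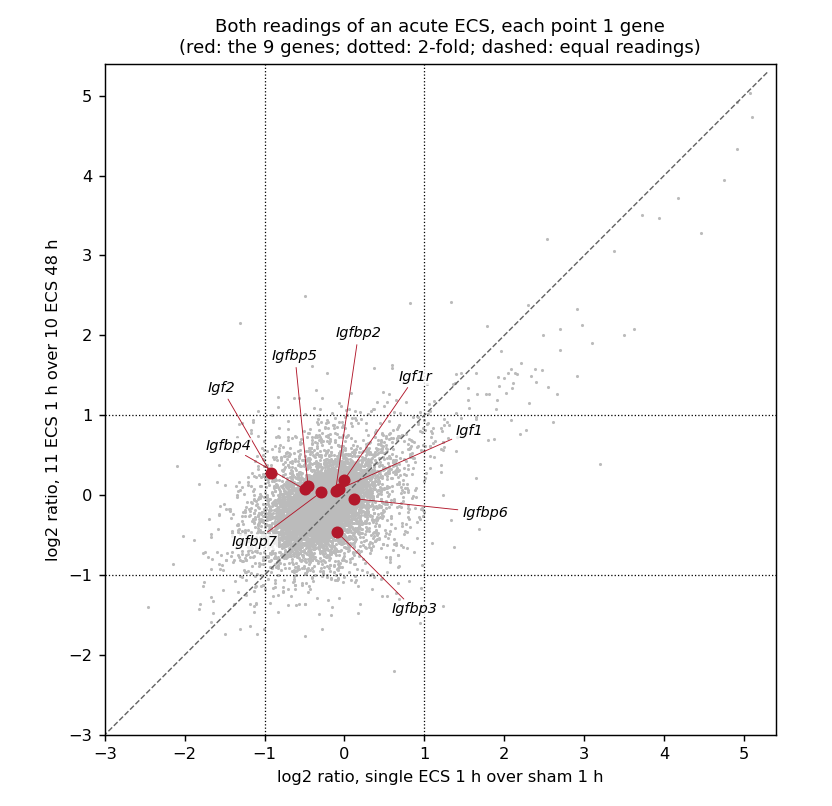
Log2 ratio of 11 ECS 1 h over 10 ECS 48 h against that of single ECS 1 h over sham 1 h, each point 1 of 9730 genes, with the 9 IGF genes in red, 2-fold limits dotted and equal readings dashed. All 9 lie inside the 2-fold limits on both axes, while the early genes at the upper right reach log2 ratios near those of Arc at 4.91 and 4.33.

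The difference of responses, the log2 ratio of the 11th ECS minus that of the first, was 1.19 for Igf2, 0.57 for Igfbp4 and 0.57 for Igfbp5. In all 3 the sham array had the highest signal of the 4. With the median over probe sets the value of Igfbp4 was 0.08 and that of Igfbp5 was -0.40, with its sign turned. It was -0.37 for Igfbp3, -0.16 for Igfbp6 and between 0.15 and 0.33 for the 4 others. Each is a single value over 4 arrays with no repeat.

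The genes most like Igfbp6 and Igfbp5 over the arrays were named by a rule, the smallest root mean square difference over the 3 log2 ratios to sham among the 7424 genes whose signal exceeded the floor on each array and averaged at least 48 units. With only 4 arrays such likeness is weak, and nothing is said of shared function. The 3 genes nearest to Igfbp6 were Gal, which encodes the neuropeptide galanin (difference 0.08), Grp, which encodes gastrin-releasing peptide (0.10), and the collagen gene Col1a2 (0.24). Gal read 39.0, 39.3, 113.7 and 112.6 units, Grp 274.8, 295.6, 754.8 and 783.5, and Col1a2 59.0, 60.6, 150.8 and 141.2. By the rule that picked them, each was low on both arrays without earlier ECS and high on both arrays with it. The 3 nearest to Igfbp5 were the zinc finger gene Zmym3 (0.05), Bcl6, a transcriptional repressor gene (0.08), and Tmtc4 (0.09). Bcl6 read 801.7, 609.7, 396.6 and 381.0 units. Within a difference of 0.25 there were 4 genes for Igfbp6 and 62 for Igfbp5, so that the pattern of Igfbp5 was the more common one.

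**Figure D4:**
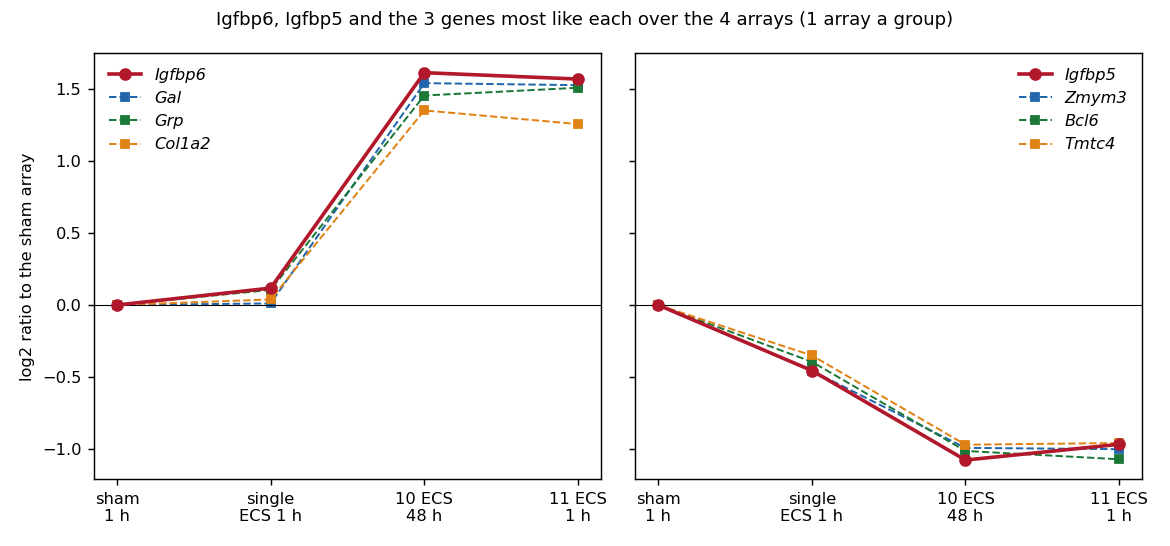
Log2 ratio to the sham array of Igfbp6 (left) and Igfbp5 (right), in red, with the 3 genes most like each in dashed lines, 1 array a group. Igfbp6, Gal, Grp and Col1a2 stay near 0 after a single ECS and lie between 1.35 (Col1a2) and 1.62 (Igfbp6) after 10 ECS, while Igfbp5, Zmym3, Bcl6 and Tmtc4 are lower after a single ECS and lower still after repeated ECS.

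Markers of other cells were read beside these genes, since Igfbp6 and Igf2 are also expressed by fibroblasts of the meninges. Fewer cells of a type and less RNA per cell cannot be told apart in dissected tissue. Of 13 genes fixed as leptomeningeal fibroblast markers 12 were on the array, and their summed signal was 849, 672.5, 915.4 and 764.5 units from sham to 11 ECS. This sum did not follow Igfbp6, since the array after 11 ECS lay below sham. Only without Ogn, a proteoglycan gene, were both arrays with repeated ECS higher, as for Igfbp6. The other 11 then summed to 608.3, 496.7, 882.0 and 743.0 units. Of these 12, 0 were at the floor on all arrays. For 10 ECS over sham 3 of them passed 2-fold upward (Col1a1, Col1a2 and Col3a1) and 1 downward (Ogn), against 0.716% and 1.22% of all genes. For 11 ECS over single ECS also 3 (Col1a2, Col3a1 and Fmod) and 1 (Ogn) did, against 0.832% and 0.782%. The ratio of Col1a1 is a lower bound, since its sham signal of 4.1 units was below the floor. Its other probe set read 15.7 units both in sham and after 10 ECS. In each of these comparisons 8 of the 12 lay above 0 and 4 below, with a median log2 ratio of 0.50 for 10 ECS over sham, against -0.14 over all genes, and of 0.27 for 11 ECS over single ECS, against 0.00. The 3 collagen genes of the list, Col1a1, Col1a2 and Col3a1, summed to 81.0, 92.1, 283.6 and 249.4 units, high on the same arrays as Igfbp6. Col3a1 read 17.9, 21.3, 105.9 and 88.1 units. The matrix genes Bgn (log2 ratios 0.68 and 0.90), Dcn (0.61 and 0.49) and Fmod (0.39 and 1.17) and the enzyme gene Aldh1a2 (0.85 and 0.05) also lay above 0 in both course readings. The other probe sets of Fmod disagreed in direction for 10 ECS over sham, with log2 ratios from -0.81 to 0.77. Ogn went the other way, with 240.7, 175.8, 33.4 and 21.5 units. The transporter genes Slc6a20a, at 147.6, 112.6, 112.6 and 90.0 units, and Slc6a13 (log2 ratios -0.50 and -0.29) also lay below 0 in both readings. Lum (-0.16 and 0.03) and Slc22a6 (0.19 and -0.36) changed sides between the readings. The part of these cells in the Igfbp6 signal was not tested.

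For Igf2 the choroid plexus was read as well. Of 10 marker genes on the array 5, among them Otx2 and Kcne2, were at or below the floor on all arrays. The choroid plexus gene Ttr was highest after a single ECS, at 215.9 units against 67.2 in sham, and Kl read 74.3, 38.4, 26.6 and 25.2 units, highest in sham like Igf2. The list went with Igf2 only in part. For single ECS over sham, 3 of 4 measured markers lay below 0 and only Ttr above. Their median log2 ratio was -0.39, against -0.24 over all genes. Of 5 markers measured for 10 ECS over sham, 4 lay above 0 and only Kl below, with a median log2 ratio of 0.40. Sostdc1, for example, read 37.8, 26.9, 51.2 and 37.8 units. For vessels, the summed signal of 12 endothelial genes was between 1099.8 and 1297 units and that of 11 mural genes between 1735.7 and 1928.1. Single vessel markers differed more than these sums. The endothelial receptor gene Kdr read 42.6, 27.7, 73.1 and 54.8 units, 1.84-fold higher by the mean of both course readings. Flt1 of the same list was lower in both (log2 ratios -0.29 and -0.39). Of 11 endothelial genes measured, 7 lay above 0 for 10 ECS over sham and 8 for 11 ECS over single ECS. The mural channel gene Kcnj8 was 2.11-fold lower for 10 ECS over sham, at 21.5 against 45.4 units, but at -0.02 for 11 ECS over single ECS. The smooth muscle actin gene Acta2 was 1.8-fold higher for 11 ECS over single ECS, but at -0.14 for 10 ECS over sham. For microglia, a source of Igf1, 13 genes summed to between 3397.1 and 3581.6 units. Of these, the receptor gene Trem2 was past 2-fold lower for 10 ECS over sham, with 30.8 units in sham and a signal below the floor after 10 ECS. Cx3cr1, the fractalkine receptor gene, had log2 ratios of -0.43 and -0.60 in both course readings. Interneuron genes summed to between 4621.6 and 5185.7 units, most of it Gad1, at 3375.7 units in sham. Of 8 measured, 6 lay below 0 for 10 ECS over sham and 2 above, and Pvalb had course readings of -0.48 and -0.40. Among astrocyte markers Gfap was 2.62-fold higher by the mean of both course readings, and Slc1a3 was lower in both (-0.44 and -0.23). For 10 ECS over sham 5 of the 10 lay above 0 and 5 below. The sum over all 10 lay between 8078.4 and 8903 units, but Gja1, at 3058.8 units in sham, outweighs Gfap at 49.3 in it. The 4 mature GC markers summed to 5467, 4146.4, 2823.1 and 2017.6 units, lowest on both arrays with repeated ECS, as Igfbp5 was. Calb1 made up most of this sum, at 3234.2 units in sham. Il1r1, at 241.0, 85.1, 165.0 and 49.4 units, was lower after a single ECS than after 10 ECS. For 11 ECS over 10 ECS all 4 lay below 0, with a median log2 ratio of -0.86, where Igfbp5 was at 0.11. The part of mature GCs in the Igfbp5 signal was not tested.

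The rest of the pathway was taken from lists of 71 genes, of which 59 were on the array. For 10 ECS over sham, 2 of 52 measured genes passed 2-fold upward (Igfbpl1 and Pik3r1; 3.85%, against 0.716% of all genes) and 2 downward (Stc1 and Bcl6; 3.85%, against 1.22%), and for 11 ECS over single ECS 1 of 53 was higher (Igfbpl1; 1.89%, against 0.832%) and 1 lower (Foxo4; 1.89%, against 0.782%). In both course readings, 1 of 50 was higher (2%, against 0.237%) and 0 were lower (against 0.144%). The gene higher in both was Igfbpl1, which encodes a protein with an IGF-binding domain found in immature neurons. It read 49.6, 47.0, 107.3 and 127.2 units, 2.42-fold higher by the mean of both readings (log2 1.27 ± 0.23, SD, n = 2 array pairs), and its other probe set read 15.6, 11.5, 50.1 and 43.2. It was thus, like Igfbp6, low without and high with earlier ECS. Igfbp1, which neighbours Igfbp3, and Igfals were below the floor on all arrays.

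Stc1, whose product inhibits PAPP-A, read 96.0, 50.8, 47.6 and 33.7 units, 2.02-fold lower for 10 ECS over sham and 1.51-fold lower for 11 ECS over single ECS. Htra1, a secreted protease that can cut binding proteins, read between 1038 and 1262.7 units. Among receptors, Igf2r, which clears IGF2, read 182.9, 143.8, 161.9 and 136.9 units. Its other probe set read 210.0, 128.6, 126.4 and 120.5 units, highest in sham like Igf2. For single ECS and 10 ECS over sham that probe set had log2 ratios of -0.71 and -0.73, against -0.35 and -0.18 for the brightest. Insr was near the floor, at 16.3 units or less by its brightest probe set, and the orphan receptor gene Insrr was below it. Ins2, the neighbour of Igf2, exceeded the floor only after a single ECS, at 17.2 units.

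The insulin receptor substrate genes differed acutely, in opposite directions and under 2-fold. Irs2 read 203.6 units in sham, 373.4 after a single ECS, 134.4 after 10 ECS and 213.9 after 11 ECS. It was higher 1 h after ECS in both pairs, with a mean acute log2 ratio of 0.77 ± 0.14, and lower with earlier ECS in both pairs, with a mean course ratio of -0.70 ± 0.14 (SD, n = 2 array pairs). Irs1 read 329.9, 184.5, 320.5 and 175.1 units, with a mean acute ratio of -0.86 ± 0.02 and a course ratio of -0.06 ± 0.02. Irs4 was below the floor on all arrays. Grb14, an inhibitory adaptor of the insulin receptor, read 666.5, 534.6, 450.0 and 333.3 units, with a mean course ratio of -0.62 ± 0.08.

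Of 9 PI3 kinase and Akt genes on the array, Pik3r1, a regulatory subunit, was 2.22-fold higher for 10 ECS over sham and 2.59-fold lower for 11 ECS over 10 ECS by its brightest probe set, which read 157.9, 96.5, 351.1 and 135.3 units. A second probe set of Pik3r1 read 123.7, 68.2, 121.6 and 90.2 units, without the high value after 10 ECS, and the third read 17.7, 20.8, 43.8 and 25.8, highest after 10 ECS like the brightest. By their brightest probe sets the 8 others were under 2-fold in all 4 comparisons, and Akt1 and Akt2 had log2 ratios between -0.25 and 0.04. Dimmer probe sets differed more. That of Inpp5d had -1.08 after the first ECS, at 11.2 against 25.3 units. That of Akt2 had -0.76 for 11 ECS over 10 ECS, and that of Akt1 -0.66 for 11 ECS over single ECS. Of 8 genes of the mTOR branch 0 were past 2-fold in the 4 comparisons, where each direction held between 0.716% and 2.89% of all genes. Rheb, the activating GTPase of this branch, read 2709.7, 4041, 2659 and 3336.5 units, a mean acute ratio of 0.45 ± 0.18. Among FoxO factors, Foxo1 and Foxo3 were under 2-fold in all 4 comparisons, and Foxo4 was 2.32-fold lower for 11 ECS over single ECS, at 15.3 against 35.5 units.

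Targets of FoxO factors, which IGF signalling restrains, were read last. Of 9 on the array, 1 was at least 2-fold lower and 0 higher after the first ECS and the same counts were found after the 11th. Of all genes, 2.89% and 1.21% were 2-fold lower in these comparisons and 1.2% and 1.06% were 2-fold higher. The lower gene in both was Fbxo32, a ubiquitin ligase gene best known from muscle, at 60.2, 17.1, 47.5 and 17.7 units, a mean acute ratio of -1.62 ± 0.28, although its other probe set had log2 ratios of -1.66 and -0.04. By its mean signal Fbxo32 lay among the dim genes of 12 to 50 units. Of those, 7.76% were 2-fold lower after the first ECS and 4.35% after the 11th. Sesn1 (990.2, 511.3, 958.7 and 567.8 units) and Ccng2 (794.0, 450.2, 774.9 and 523.4 units) were lower 1 h after ECS in both pairs, by less than 2-fold. The list's median log2 ratio was -0.39 after the first ECS and -0.09 after the 11th, against -0.24 and -0.11 over all genes. Of the 51 pathway genes measured in both acute readings, Fbxo32 was the 1 gene past 2-fold in both, 1.96% of them against 0.36% of all genes, and 0 were past it upward, against 0.627%.

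**Figure D5:**
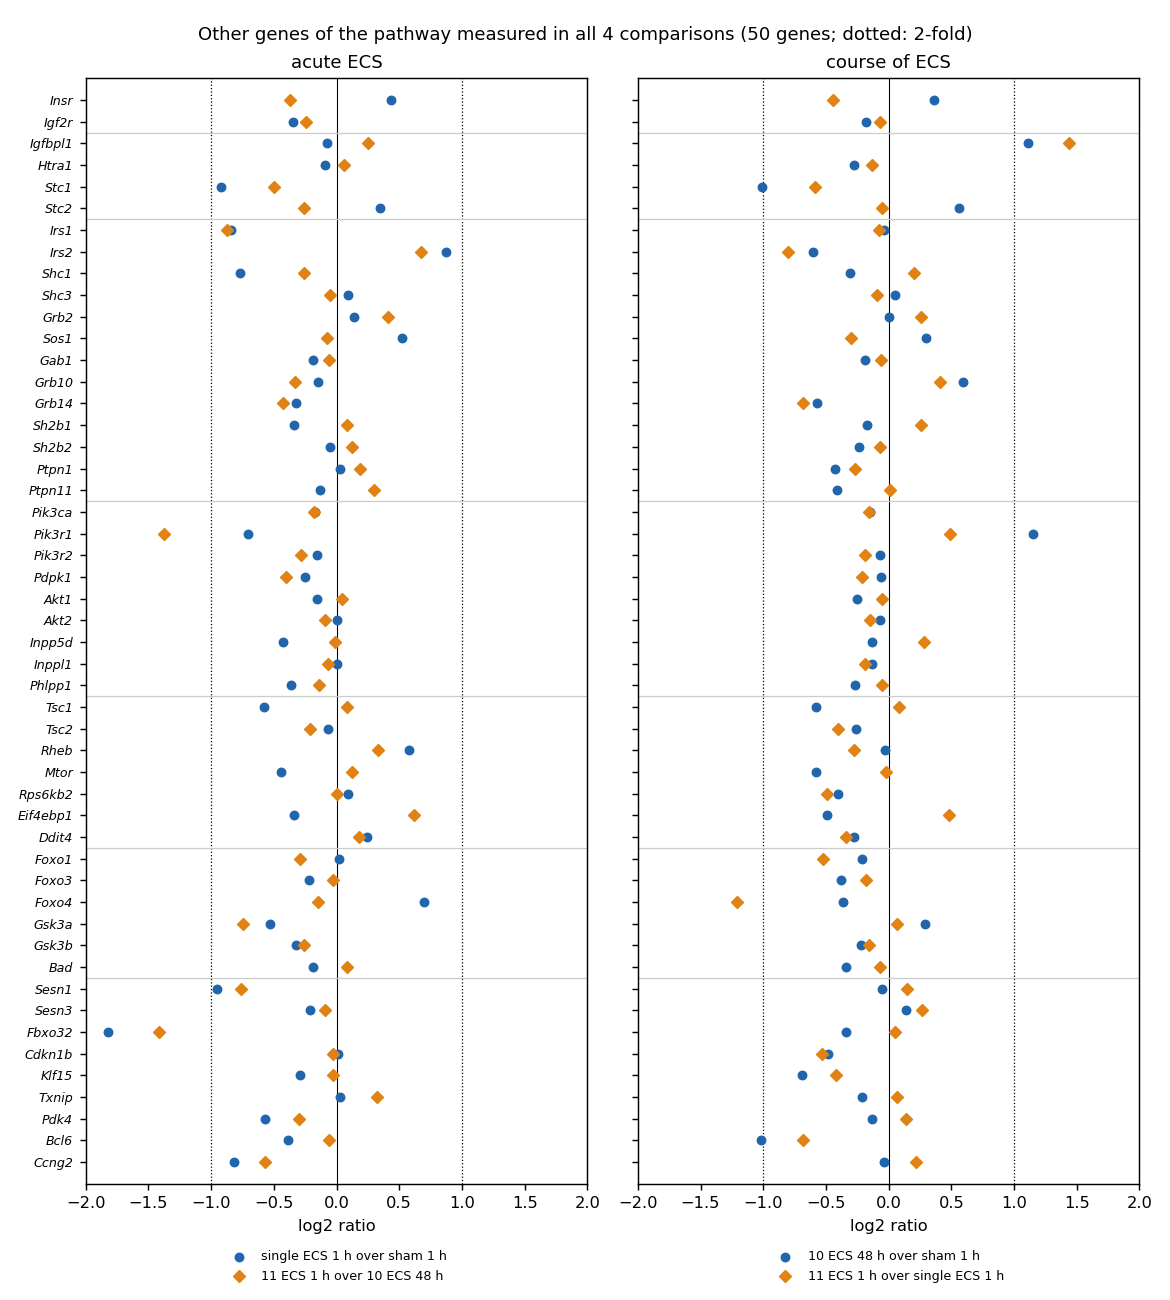
Log2 ratios of the 50 other pathway genes measured in all 4 comparisons, with both acute readings on the left and both course readings on the right, each point 1 pair of arrays, 2-fold limits dotted and grey lines between the lists. Irs1, Irs2, Sesn1 and Fbxo32 keep their side of 0 in both acute readings, and Igfbpl1 lies past 2-fold in both course readings.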

How the data were processed

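RNA from the dissected DG was measured on Affymetrix Mouse Genome 430A 2.0 arrays. The authors pooled the RNA of 3 mice a group, amplified 100 ng with a 3' in vitro transcription kit and computed MAS5 signals. Each deposited value is such a signal, an intensity in linear units. How arrays were scaled to each other is not given in the sources read. Detection and change calls were not used here.

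The 64 control probe sets were left out, and 20380 of 22626 others had 1 symbol. Symbols came from the array's annotation, and those of the 9 genes matched the gene table of GRCm38.p6. The probe set brightest on average stood for its gene. Signals under 12 units were set to this floor, a comparison gave no value for a gene whose 2 signals were both at the floor, and log2 ratios were taken between arrays with Python 3.11.15, numpy 2.4.6 and pandas 2.3.3. The script was tested on simulated data. The 2-fold limit is a size, not a test, and with 1 array a group, the number of arrays limits the precision. Every probe set of the 9 genes is reported. Of each other pathway list the genes past 2-fold were named, with up to 3 a comparison, and further pathway and marker genes were named after their values were seen. The genes, lists and rules were chosen with earlier results of these data known. Alternatives were a floor of 50 units, median scaling, quantile normalization, the median over probe sets of a gene, and log2(signal + 16) without a floor.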

Additional observations from a re-analysis of the deposited data

How the results depend on the processing

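The number of arrays limits these results: with 1 pooled array a group no replicate could be left out. No paired analysis was possible because the labels carry no replicate numbers and each group has 1 array. Igfbp6 was at least 2-fold higher in both course readings under all 5 alternatives and with the floor of 50 combined with median scaling, which was added after seeing the data. Its log2 ratio lay between 1.18 and 1.79 for 10 ECS over sham and between 1.16 and 1.46 for 11 ECS over single ECS. The count of IGF genes at least 2-fold lower for 10 ECS over sham was 1 (Igfbp5), and 0 with median scaling, with quantile normalization, with the median over probe sets, and with the floor of 50 and median scaling together. After the first ECS, median scaling, alone or with the floor of 50, turned the sign of the log2 ratio of Igf1 (to 0.23), Igf1r (to 0.29), Igfbp2 (to 0.19), Igfbp3 (to 0.21) and Igfbp7 (to 0.01). Quantile normalization turned that of Igf1, Igf1r, Igfbp2 and Igfbp3 (to 0.21, 0.26, 0.15 and 0.19), and the median over probe sets that of Igf1 (to 0.10), Igfbp4 (to 0.03), Igfbp5 (to 0.21) and Igfbp7 (to 0.19). Other ratios whose sign turned under an alternative were those of Igf1, Igf1r, Igfbp5 and Igfbp6 for 11 ECS over 10 ECS and of Igf1r and Igfbp3 for 11 ECS over single ECS.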
